A study of Mus musculus with 3 samples.

Results

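MHC class II macrophages are taken here as cells of the nucleus accumbens that carried RNA of both the MHC class II molecules and the macrophage lysozyme gene. Cells with RNA of a few chosen genes of microglia, T cells or migratory dendritic cells were left out. So were cells with more than a trace of RNA of chosen neuron genes. A cell was a member when its UMIs of Cd74, H2-Aa, H2-Ab1 and H2-Eb1 summed to at least 5 and it had at least 1 Lyz2 UMI. It also had to have no UMI of P2ry12, Tmem119, Cd3d, Cd3e, Cd3g, Ccr7 or Ccl22 and at most 1 UMI of Snap25 and Syt1 together. A UMI (unique molecular identifier) marks each captured RNA molecule, so PCR copies do not add to its count. The rule found 114 members among 10291 kept cells (300 or more genes detected, mitochondrial UMIs no more than 20%), out of 11625 deposited cells. They are called gated macrophages below, which names the gate. The genes of the gate chose the members, so their values are given as a description and were not tested.

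The cells came from Thy1::ChR2 mice, which carry a channelrhodopsin transgene under the neuronal Thy1 promoter, and from a coronal dissection of the nucleus accumbens. All 3 samples received FLiCRE, a tool that records coincident calcium and light in a reporter RNA, during optogenetic stimulation. They form 1 group, with no unstimulated or unlabelled arm, so every cell described here shares the transgene, the FLiCRE treatment and the stimulation, and nothing below compares conditions. The labels give neither age nor sex, and do not say how many animals were pooled in a sample. The 3 libraries are numbered by the suffix of the cell barcodes. This suffix is not tied to a numbered replicate of the labels.

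MHC class II molecules are pairs of an alpha and a beta chain (H2-Aa with H2-Ab1, H2-Ea with H2-Eb1) that show peptides to CD4+ T cells. The invariant chain Cd74 fills their groove until lysosomal proteases such as Ctss and Lgmn cut it down to the CLIP fragment, which the H2-DM dimer then exchanges for peptide. In the brain, microglia of the parenchyma make little class II at rest. Macrophages of the meninges, the perivascular space and the choroid plexus, dendritic cells and monocytes that enter from blood make more.

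Library 1 held 43 gated macrophages, library 2 held 64 and library 3 held 7. They made up 1.83% of the kept cells of library 1 (exact Clopper-Pearson 95% interval 1.33 to 2.46%), 1.05% of library 2 (0.812 to 1.34%) and 0.376% of library 3 (0.151 to 0.773%). Their mean share was 1.09% ± 0.727 (SD, n = 3), so the libraries differed widely, and the interval of library 3 lay below those of the other two. Among non-neuronal cells (at most 1 UMI of Snap25, Syt1 and Snhg11 together) the shares were 2.63%, 3.15% and 0.771%. Library 3 was again lowest, with an interval of 0.310 to 1.58% against 1.91 to 3.53% and 2.44 to 4.01%. These intervals cover counting error only.

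Microglia did not follow the same order. Cells with at least 2 UMIs of P2ry12 and Tmem119 together, called microglia-gated cells, numbered 30, 130 and 70 in libraries 1 to 3. Gated macrophages per microglia-gated cell were therefore 1.43, 0.492 and 0.1. Whether the dissection, the dissociation or the animals set this difference was not tested.

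The gated macrophages had a median of 1344, 1492 and 2759 UMIs per cell in libraries 1 to 3, and 66764, 122191 and 23266 UMIs in sum. Libraries shared 13, 7 and 22 barcodes in pairs, and 0 members carried a shared barcode. Removing the cells with the highest doublet scores took away 8 of the 114 members. All other kept non-neuronal cells, 4458 in number, had a median of 1191.5 UMIs, and the 230 microglia-gated cells had 1108. Library 3 carries only 7 members, and every level given for it rests on them.

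The MHC class II sum varied widely between members. It had a median of 27.5 UMIs per cell and ran from 5 to 634. As a share of a cell's UMIs the lowest, median and highest values were 0.148%, 1.79% and 9.36% in library 1. They were 0.147%, 2.56% and 12.3% in library 2 and 2.05%, 2.62% and 6.18% in library 3. No member of library 3 lay near the lower threshold. The median Lyz2 count was 4 UMIs, and 28 members had a single Lyz2 UMI. A Lyz2 UMI was also found in 11.6% of 1228 oligodendrocyte-gated cells (median 1808.5 UMIs), cells that should lack the gene, and this share is the background for a single Lyz2 UMI.

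**Figure D1:**
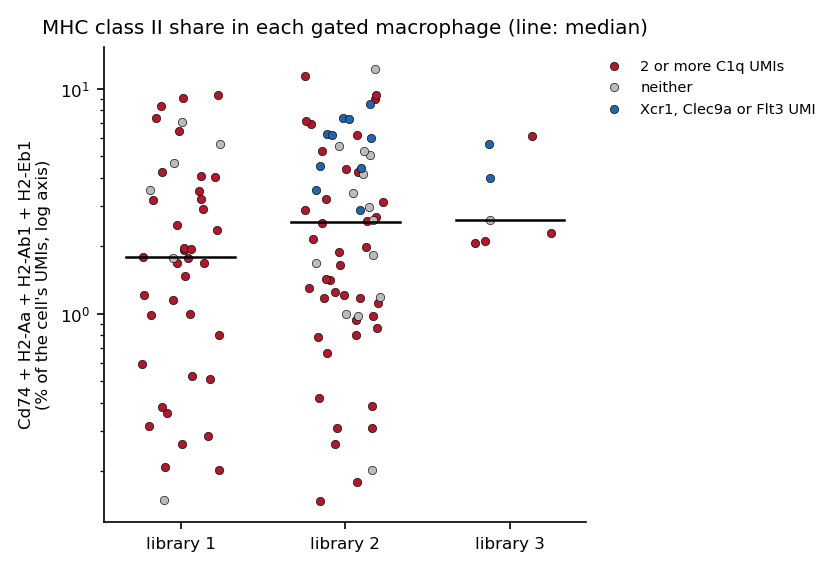
Each point is 1 gated macrophage, by library (x axis). The y axis (log scale) gives Cd74, H2-Aa, H2-Ab1 and H2-Eb1 UMIs as a percentage of the cell's UMIs, lines mark medians (1.79%, 2.56% and 2.62%), and colours mark cells with 2 or more C1q UMIs and cells with an Xcr1, Clec9a or Flt3 UMI. The 12 cells of the latter kind all lie in libraries 2 and 3.

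Cells just outside the MHC class II threshold had macrophage genes about as often as those just inside it. The 13 members with a sum of 5 or 6 had at least 2 C1q UMIs in 76.9% of cells and Ms4a7 in 38.5%. The 21 cells that met every other rule with a sum of 3 or 4 had these in 71.4% and 33.3%. Another 69 cells had enough MHC class II RNA but no Lyz2 UMI, and only 15.9% of them had at least 2 C1q UMIs. Another 52 cells failed only on a P2ry12 or Tmem119 UMI, and 96.2% of them had at least 2 C1q UMIs. A further 9 failed only on Ccr7 or Ccl22, genes of migratory dendritic cells. In all, 331 kept cells had a sum of at least 5, of which 48 had more than 1 UMI of Snap25 and Syt1.

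Most members had RNA of macrophage genes, which microglia-gated cells had too. At least 2 genes of a list of 15 macrophage genes outside the gate had a UMI in 110 of 114 members (96.5%). The same held for 98.7% of microglia-gated cells, so this count does not tell macrophages from microglia. With every cell thinned to 1000 UMIs, which left out 33 members that were shallower, the share was 91.4% of 81 members against 5.89% of oligodendrocyte-gated cells. Tyrobp, the adaptor of myeloid activating receptors, was found in 81.6% of members. C1qa, which encodes a chain of complement C1q, was found in 64.9%, and Ms4a7, a membrane protein of border and monocyte-derived macrophages that was given as a marker of the label, in 44.7%. In thinned cells these shares were 72.8%, 60.5% and 38.3%.

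Defining genes of resident border macrophages were found in few members. Mrc1, the mannose receptor, had a UMI in 4.39% of members and the chemokine Pf4 in 9.65%, while Cd163 and Lyve1 were at 0. Stab1, a scavenger receptor on the same list, had a UMI in 26 members (22.8%), against 20% of microglia-gated cells. The summed level of the 8 genes was 270 to 731 CPM (counts per 1000000 UMIs) in gated macrophages of the 3 libraries, 154 to 497 CPM in microglia-gated cells and 86.0 to 108 CPM in all other non-neuronal cells. Only 9 members had at least 2 of the 8 border macrophage genes. Genes of the monocyte list reached 2 or more in 20 members and those of the conventional dendritic cell list in 16. Of 10 microglia genes outside the gate, at least 2 had a UMI in 43 members, 20, 20 and 3 in libraries 1 to 3. In thinned cells this share was 24.7%, against 1.47% of oligodendrocyte-gated cells. Of these 43 cells, 38 had at least 2 C1q UMIs and 19 had a UMI of Spp1. B cell, neutrophil, mast cell, pericyte and fibroblast lists reached 2 genes in 0 members, and the T and NK cell list in 1. Of 8 oligodendrocyte genes at least 2 were found in 39 members, 33 of them in library 2, which was 34.2% of members against 35.7% of microglia-gated cells. At least 2 of 8 astrocyte genes were found in 27 members, 21 of them in library 2 (23.7% of members against 29.6% of microglia-gated cells). At least 2 of 6 neuron genes outside the gate were found in 20 members, 15 of them in library 2 (17.5% against 15.7%). The part of RNA of these cell classes in the results below was not tested. RNA of several kinds of myeloid cell was thus found within the gate.

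Complement C1q marked the largest set. At least 2 UMIs of C1qa, C1qb and C1qc together were found in 82 members, 37 of 43 in library 1, 41 of 64 in library 2 and 4 of 7 in library 3. Of 51 members with Ms4a7, 50 were among these 82. The sets were defined after their values had been seen and on the genes named, so the following levels are a description of summed counts, in CPM. Apoe, the lipid carrier, stood at 48562 CPM in the 82 cells and 2550 CPM in the other 32. Trem2, a lipid receptor of phagocytes, stood at 875 and 103 CPM, and Csf1r, the receptor for the macrophage growth factor CSF1, at 389 and 58.6 CPM.

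The other 32 members had more RNA of other genes. Plac8, a gene of inflammatory monocytes and some dendritic cells, stood at 2213 CPM in them against 146 CPM in the 82 C1q cells. Irf8, the transcription factor needed for type 1 dendritic cells, stood at 1158 against 243 CPM, and Ifi205 at 777 against 13.9 CPM. The H2-DM genes were detected in both sets, H2-DMa at 982 and 590 CPM and H2-DMb1 at 630 and 403 CPM.

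A small set carried genes of type 1 conventional dendritic cells, which take up dead cells and present their antigens to CD8+ T cells. An UMI of the chemokine receptor Xcr1, the dead-cell receptor Clec9a or the growth factor receptor Flt3 was found in 12 members, 0 in library 1, 10 in library 2 and 2 in library 3. Only 1 of the 12 had at least 2 C1q UMIs, against 81 of the other 102. Naaa was found in 10 of the 12 and 8 of the 102, Batf3 in 7 and 8, and Wdfy4, a gene of cross-presentation, in 8 and 4. Irf8 stood at 1876 CPM in the 12 cells and 252 CPM in the rest. Their MHC class II share was a median of 5.86% of UMIs, against 1.78% in the C1q cells, and they were deeper, with a median of 2986 UMIs against 1388.5.

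Monocyte genes were found in a set that overlapped both. Ccr2, the receptor that draws monocytes out of blood, Plac8 or Ly6c2 had a UMI in 44 members, 5 in library 1, 33 in library 2 and 6 in library 3. The set took in all 12 cells with Xcr1, Clec9a or Flt3 and 22 of the C1q cells. Ms4a7 was found in 13 of these 44 and in 38 of the other 70. The sets were spread unevenly over the libraries, with C1q cells in 37 of 43 members of library 1. A UMI of Ccr2, Plac8 or Ly6c2 was found in 6 of 7 members of library 3. These 6 took in the 2 cells of library 3 with Xcr1, Clec9a or Flt3. Only 3 of the 7 had 2 or more genes of the monocyte list. Members of library 3 were also deeper (median 2759 UMIs against 1344 in library 1), so detection is not on equal terms between libraries.

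A few members also carried RNA of vessel cells. At least 2 of 7 endothelial genes were found in 8 members, 2 in library 1, 6 in library 2 and 0 in library 3. Ackr1, the chemokine-scavenging receptor of venules, stood at 3393 CPM in these 8 and 5.33 CPM in the rest, and the tight junction gene Cldn5 at 2330 and 16.0 CPM. Single members had 15, 36 and 28 Ackr1 UMIs and every other member at most 3, and 1 member had 36 Cldn5 UMIs. Of the 8, 6 had at least 2 C1q UMIs and 5 had Ms4a7, against 76 and 46 of the other 106. Tyrobp and Fcer1g were both without a UMI in 12 members, of which 2 had endothelial genes and 8 had at least 2 C1q UMIs. Whether these were doublets or other cells with class II RNA was not tested.

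**Figure D2:**
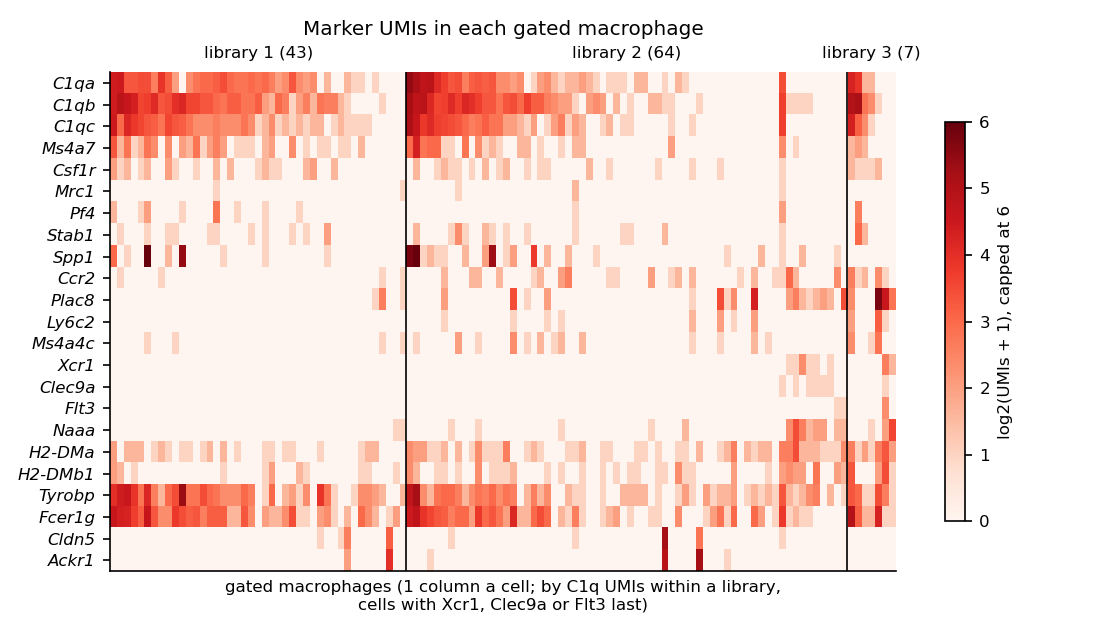
Each column is 1 of the 114 gated macrophages, grouped by library and ordered by C1q UMIs, with the cells that have an Xcr1, Clec9a or Flt3 UMI last in each library. Rows are genes and colour is log2(UMIs + 1), capped at 6. C1q and Ms4a7 fill the left of each library, and Xcr1, Clec9a and Naaa the right of libraries 2 and 3. The order of the columns sets the places of C1q, Xcr1 and Clec9a. Tyrobp lies on both sides, with a UMI in 67 of the 82 cells with 2 or more C1q UMIs and 26 of the other 32.

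Spp1, the secreted phosphoprotein osteopontin, was found in 28 members, 8 in library 1, 20 in library 2 and 0 in library 3. The 28 cells had Spp1 at 4568 CPM, with Gpnmb at 831 CPM against 92.9 CPM in the other 86, and 24 of the 28 had at least 2 C1q UMIs. The Spp1 level came mostly from a few cells. Single members had 78 and 42 Spp1 UMIs in library 1 and 65, 54 and 39 in library 2, and every other member had at most 13.

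Gene levels were compared on counts summed per library with the quasi-likelihood test of edgeR and the library as a block, with Benjamini-Hochberg adjustment over all genes tested. The minimum of 10 cells per library leaves library 3 out of the main fit, which then has 2 pairs of sums. A fit of all 3 libraries, chosen after the data were seen, is given beside it. Against the other non-neuronal cells the fit of libraries 1 and 2 called 0 of 9704 genes (percent called 0), with 1350 at an unadjusted p under 0.05, and DESeq2 on the same sums called 291. The fit of all 3 libraries called 872 of 9253 genes (9.42%), 364 higher (3.93%) and 508 lower (5.49%) in gated macrophages. It called 197 without library 1 and 0 without library 2. Every gene called higher or lower against these cells in the next paragraphs passed in the fit of all 3 libraries and not in that of libraries 1 and 2. The members were chosen on counts of these same cells, so genes that travel with the gate genes follow in part from the choice.

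Of the 14 genes of the class II loading list, 10 were tested against other non-neuronal cells and 6 were higher in gated macrophages (H2-DMb1, H2-DMa, H2-Oa, Ifi30, H2-DMb2, Ctss), 0 lower, in the fit of all 3 libraries. H2-DMa encodes the alpha chain of the peptide exchange dimer and stood at 464, 769 and 1160 CPM in gated macrophages of libraries 1 to 3. It stood at 57.5, 60.5 and 26.0 CPM in the other cells, and its log2 fold change was 3.91 ± 0.429 (SE), with an adjusted p of 2.03e-08 (edgeR, all 3 libraries). H2-DMb1, the beta chain, stood at 255, 499 and 989 CPM against 23.2, 31.9 and 14.6 CPM (log2 fold change 4.36 ± 0.452, adjusted p = 7.2e-09). The lowest gated macrophage library was above the highest library of the other cells for both genes. H2-DMb2 is a close copy of H2-DMb1, and how the counting split reads between them is not given in the sources used here.

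The 6 genes of the loading list that were higher stand against 3.93% of all genes called higher. The median log2 fold change of the 10 tested genes of the list was 2.37, against -0.46 over all genes tested. Ctss, the protease that trims Cd74, stood at 5737, 3552 and 2579 CPM against 908, 906 and 461 CPM. Ifi30, a lysosomal thiol reductase that opens disulphide bonds of antigens, stood at 195, 311 and 731 CPM against 65.4, 48.2 and 24.5 CPM. Ciita, the master coactivator of class II genes, had 7 UMIs in library 2 and 0 in libraries 1 and 3.

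H2-DMa, H2-DMb1, H2-Oa, H2-Ob, H2-Aa and H2-Eb1 lie in the MHC class II region of chromosome 17 (RefSeq, GRCm38.p6). H2-DMa spans bases 34119693 to 34139101 and H2-DMb1 bases 34153191 to 34160229. Class II promoters are known for an X box, bound by RFX factors, and a Y box, bound by NF-Y, on which Ciita assembles. The promoters of H2-Aa, H2-Eb1, H2-DMb1 and H2-Ob share the letters CTNGNAAC followed on the gene's strand by ATTGG, here in capitals, at a distance of 25 to 28 bases. They are shown because the results turn on H2-DMb1 and its gate relatives. The pattern was chosen after these sequences had been read.
H2-Aa (chr17:34287862-34287912, minus strand): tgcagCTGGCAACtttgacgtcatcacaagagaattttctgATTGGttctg
H2-Eb1 (chr17:34305768-34305817, plus strand): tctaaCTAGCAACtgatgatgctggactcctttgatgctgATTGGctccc
H2-DMb1 (chr17:34153089-34153139, plus strand): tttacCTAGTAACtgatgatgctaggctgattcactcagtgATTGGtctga
H2-Ob (chr17:34238810-34238857, plus strand): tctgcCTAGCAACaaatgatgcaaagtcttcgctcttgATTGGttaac

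The first capital lay 84, 94, 97 and 90 bases before the annotated start of H2-Aa, H2-Eb1, H2-DMb1 and H2-Ob. The 2 motifs 15 to 45 bases apart, on either strand, were in 0.374% of 32851 RefSeq promoters of 300 bases (250 before to 50 after the start). CTNGNAAC alone was in 13.2% and ATTGG alone in 37.4%. The promoters of H2-DMa, H2-DMb2 and H2-Oa in the table did not hold the pair in these letters. H2-Ob, which has the pair, was a low gene, at 0, 16.4 and 86.0 CPM in gated macrophages. A match is a description of letters and not a measured binding site.

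Of 11 genes of the class I pathway, 11 were tested and 5 were higher (Psmb9, Psmb8, H2-K1, B2m, H2-D1), 0 lower, where 3.93% of all genes were called higher. B2m, the light chain of class I, stood at 6261, 4984 and 7264 CPM against 1971, 2091 and 2771 CPM (log2 fold change 1.32 ± 0.319, adjusted p = 0.00408). Its levels did not overlap between the arms. Psmb8, an immunoproteasome subunit, had a log2 fold change of 1.67 ± 0.370 (adjusted p = 0.00155). Of the 6 costimulation genes 2 were tested and Cd86, the ligand of CD28, was higher (log2 fold change 2.56 ± 0.586, adjusted p = 0.00231), although library 3 had 0 Cd86 UMIs.

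The macrophage list showed 13 of 15 genes higher and 0 lower, with a median log2 fold change of 1.85, where 3.93% of all genes were called higher. Fcer1g, the Fc receptor gamma chain, Tyrobp and Spi1, the lineage factor PU.1, had log2 fold changes of 2.51, 2.21 and 2.68. Ms4a7 stood at 1138, 655 and 301 CPM against 118, 59.9 and 35.1 CPM (log2 fold change 3.26 ± 0.426, adjusted p = 5.99e-07). Of the border macrophage list 4 of 8 genes were tested and Pf4 and Stab1 were higher, with log2 fold changes of 2.33 and 2.31. Of 15 complement and Fc receptor genes, 14 were tested, 12 were higher and 0 lower. C1qa stood at 3430, 2226 and 1547 CPM against 928, 883 and 604 CPM (log2 fold change 1.43 ± 0.343, adjusted p = 0.00362). The other arm holds the microglia, so it is no zero for these genes.

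Among the named genes that were higher, Plbd1, Ccr2 and Ifi205 had the largest log2 fold changes. Ccr2 stood at 59.9, 385 and 559 CPM against 3.69, 15.05 and 4.03 CPM (log2 fold change 5.19 ± 0.535, adjusted p = 7.2e-09). Plbd1, a phospholipase-like protein of myeloid cells, stood at 59.9, 213 and 430 CPM against 5.27, 4.61 and 2.20 CPM. Ifi205, an interferon-inducible gene, stood at 14.98, 352 and 473 CPM against 3.69, 11.7 and 3.29 CPM. All 3 genes were lowest in library 1, where C1q cells were the most frequent. In the 12 members with Xcr1, Clec9a or Flt3, Ifi205 stood at 1206 CPM, against 57.2 CPM in the other 102. Plbd1 stood at 643 against 91.5 CPM and Ccr2 at 402 against 280 CPM. How far these 12 members carry the calls was not tested.

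Plac8 stood at 105, 655 and 3653 CPM against 36.4, 37.5 and 25.6 CPM (log2 fold change 4.42 ± 0.919, adjusted p = 0.0276), and 30.8% of its UMIs came from 1 cell. Cxcl9, a chemokine induced by interferon gamma, stood at 89.9, 147 and 946 CPM, and 47.8% of its UMIs came from 1 cell. The other named genes outside the lists were Ms4a6c, Cybb, Lst1 and Cd48. Cybb, the catalytic subunit of the phagocyte oxidase, stood at 270, 270 and 344 CPM against 39.0, 25.8 and 10.6 CPM. Of 9 monocyte genes, 7 were tested and 4 were higher, where 3.93% of all genes were called higher. Without the 18 members that had endothelial genes or neither Tyrobp nor Fcer1g, Plac8 (adjusted p = 0.180) and Cxcl9 (adjusted p = 0.273) did not pass. Cxcl9 stood at 873 CPM in the 12 members without Tyrobp and Fcer1g and 155 CPM in the other 102.

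Among chemokines, 5 of 12 tested genes were higher (Ccl9, Cxcl9, Cxcl2, Ccl6, Cxcl16) and 0 lower, where 3.93% of all genes were called higher. Cxcl16, a scavenger and chemokine, stood at 404, 393 and 602 CPM against 75.4, 53.7 and 20.9 CPM. Il1b, the inflammatory cytokine, stood at 195, 450 and 43.0 CPM against 31.6, 36.5 and 17.2 CPM (log2 fold change 2.98 ± 0.507, adjusted p = 4.69e-05). Its 43.0 CPM in library 3 is the smallest level above 0 that the 23266 UMIs of the members there allow. Among 16 interferon response genes 5 were higher and Ifit3 was lower, with a log2 fold change of -1.64 (adjusted p = 0.0407). Without the same 18 members Ifit3 did not pass (adjusted p = 0.0522).

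Genes of the other cell classes were lower in part. Of 8 oligodendrocyte genes 7 were lower, of 8 astrocyte genes 8, and of 4 tested pericyte and smooth muscle genes 4, where 5.49% of all genes were called lower. Of 4 genes of oligodendrocyte precursors 2 were lower, of 3 tested fibroblast genes 2, of 7 endothelial genes 3 and of 6 neuron genes 0, and none of these lists had a gene that was higher. Without the 18 members named above, 6 astrocyte genes and 6 endothelial genes were lower. Ptgds, prostaglandin D synthase, stood at 30.0, 213 and 129 CPM against 1134, 2032 and 2770 CPM (log2 fold change -4.01 ± 0.446, adjusted p = 2.46e-08). Other named genes that passed were Dbndd2, Klk6, Tspan2, Htra1, Mal and Grb14, which stand high in oligodendrocytes or other glia. Acta2, smooth muscle actin, had 0 UMIs in the members. That allows up to 14.1 CPM over all members, at least 16.2-fold lower than the 229 CPM of the other cells pooled.

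Microglia are the closest relatives measured here. In libraries 1 and 2, 72 of 1362 tested genes were called (5.29%), 31 higher (2.28%) and 41 lower (3.01%) in gated macrophages. With all 3 libraries 123 of 1253 were called (9.82%), 37 higher (2.95%) and 86 lower (6.86%), and of 1211 genes tested in both fits 49 were called in both. These counts changed with the setting. No gene passed in libraries 1 and 2 when only cells of at least 1000 UMIs were used (173 at an unadjusted p under 0.05) or when the highest doublet scores were removed (217). No gene passed in the fit of all 3 libraries without library 1 (320 at an unadjusted p under 0.05), and 22 passed without library 2. DESeq2 called 29 and 58 genes in the 2 fits. The 2 gates differ by construction in P2ry12 and Tmem119, so lower microglia genes follow in part from the choice. Only members also had to have MHC class II and Lyz2 UMIs and no Ccr7 or Ccl22 UMI. Higher genes that travel with the class II genes or Lyz2, such as the H2-DM genes, can thus follow in part from the choice too.

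All 8 tested genes of the microglia list were lower in both fits, where 3.01% (libraries 1 and 2) and 6.86% (all 3) of all genes were called lower. Cx3cr1, the fractalkine receptor, stood at 374, 65.5 and 129 CPM in gated macrophages and 1668, 1054 and 948 CPM in microglia-gated cells. Its log2 fold change was -2.84 ± 0.436, with an adjusted p of 0.0187 (edgeR, libraries 1 and 2). Selplg, the P-selectin ligand, stood at 59.9, 172 and 258 CPM against 1001, 1381 and 1173 CPM. Siglech had 0 UMIs in the members, at least 22.7-fold lower than the 321 CPM of microglia-gated cells pooled. None of these levels overlapped between the arms.

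Complement C1q was lower than in microglia although it was higher than in the other non-neuronal cells together. C1qa stood at 8213, 7970 and 7239 CPM in microglia-gated cells (log2 fold change -1.48 ± 0.235, adjusted p = 0.0197). C1qb and C1qc had log2 fold changes of -1.24 and -1.46, and Itgam and Fcgr3 were lower too, 5 of 12 tested genes of the list in all. Of all genes tested in libraries 1 and 2, 3.01% were called lower. The chemokines Ccl3, Ccl4 and Ccl12 were lower, 3 of 10 tested. Ccl12 stood at 404, 565 and 172 CPM against 2926, 1845 and 2167 CPM (log2 fold change -2.12 ± 0.311, adjusted p = 0.0168). Of 5 tested cytokine genes 1 was lower and 2 were higher in libraries 1 and 2. Tnf, the inflammatory cytokine, was lower, at 14.98, 8.18 and 0 CPM against 282, 131 and 202 CPM. Il1b was higher, at 195, 450 and 43.0 CPM against 77.0, 115 and 162 CPM (adjusted p = 0.0386, and 0.291 with all 3 libraries). Tgfbi, a matrix protein induced by TGF-beta, was higher too, at 344, 196 and 43.0 CPM against 0, 32.8 and 52.0 CPM (adjusted p = 0.0457). In library 3 the values of both genes were lower in gated macrophages than in microglia-gated cells. The 43.0 CPM there is the smallest level above 0 that the 23266 UMIs of its members allow, so these directions are not secure.

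Other named genes that were lower in libraries 1 and 2 were Crybb1, Plxdc2, Saa3 and Cst7. Saa3, an acute phase protein, stood at 30.0, 16.4 and 0 CPM against 847, 448 and 133 CPM. Cst7, a cysteine protease inhibitor of activated microglia, stood at 30.0, 32.7 and 0 CPM against 513, 415 and 191 CPM.

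Of 12 actin-binding, S100 and galectin genes, 9 were tested against microglia and 4 were higher in libraries 1 and 2 (S100a11, Crip1, Tmsb10, Lgals1), 0 lower, with a median log2 fold change of 2.08 against 0.07 over all genes tested. The share of all genes called higher was 2.28%. With all 3 libraries 5 were higher (Crip1, S100a11, S100a6, Lgals1, Vim), and Tmsb10 had an adjusted p of 0.0556. Without the 18 members with endothelial genes or neither Tyrobp nor Fcer1g, Vim did not pass (adjusted p = 0.0807). S100a11, a calcium-binding protein, stood at 165, 573 and 903 CPM against 25.7, 49.1 and 98.2 CPM (log2 fold change 3.47 ± 0.390, adjusted p = 0.00546). Crip1, a LIM protein, stood at 1019, 769 and 1075 CPM against 205, 71.0 and 52.0 CPM (log2 fold change 3.05 ± 0.330, adjusted p = 0.00748). Neither gene overlapped between the arms. Against all other non-neuronal cells neither passed (adjusted p = 0.145 and 0.068, all 3 libraries).

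Lgals3, the galectin of activated phagocytes, stood at 1887, 1236 and 774 CPM against 51.3, 202 and 214 CPM (log2 fold change 3.24 ± 0.294, adjusted p = 0.00546). It was detected in 47.4% of members and 8.26% of microglia-gated cells. Ms4a7 was higher too (log2 fold change 2.24 ± 0.289, adjusted p = 0.0125), with microglia-gated cells at 308, 126 and 225 CPM and the lowest gated macrophage value (301, library 3) inside their range. Other named genes that were higher in libraries 1 and 2 were Mndal, Gsn, Fxyd5, Wfdc17, AW112010 and Actg1.

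**Figure D3:**
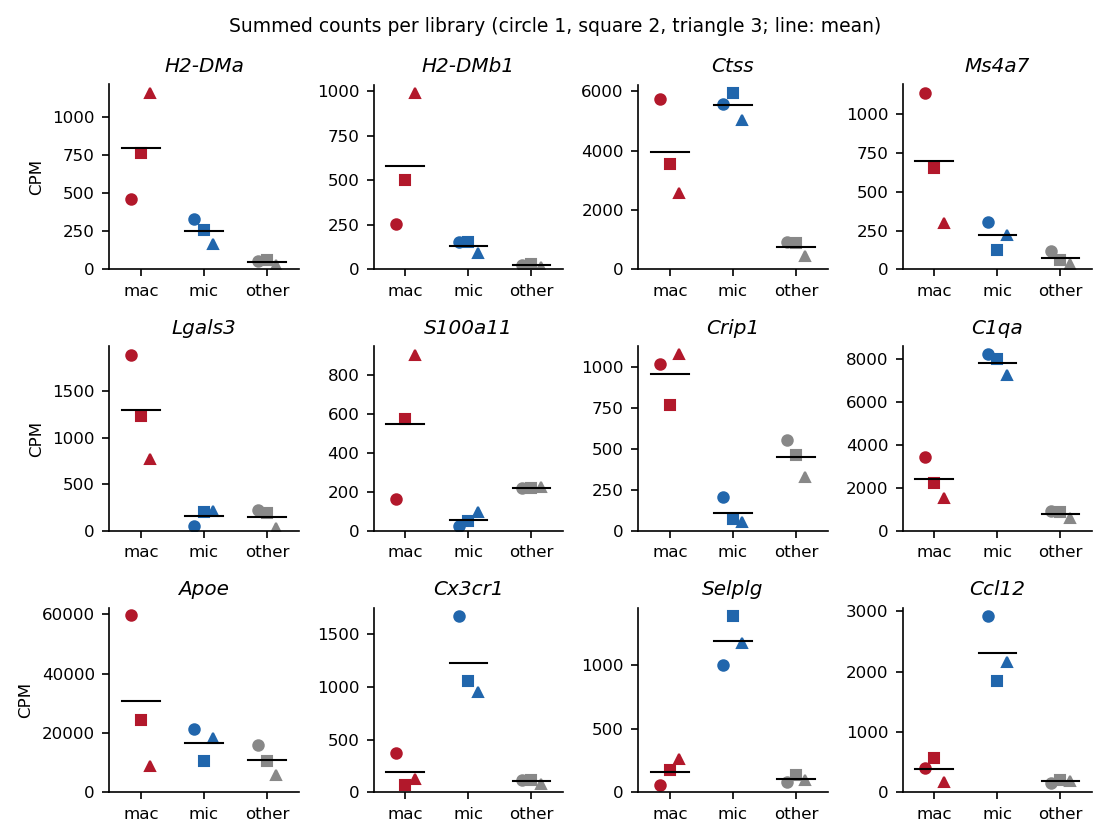
Counts per 1000000 UMIs (y axes, from 0) of 12 genes in gated macrophages (mac), microglia-gated cells (mic) and all other non-neuronal cells (other, which includes the microglia), 1 point for each library and a line for the mean of 3. H2-DMa, H2-DMb1, Lgals3 and Crip1 are highest in gated macrophages, and C1qa, Cx3cr1, Selplg and Ccl12 in microglia-gated cells.

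The calls of Apoe, Spp1 and Gpnmb depended on library 3. Apoe stood at 59598, 24404 and 8811 CPM in gated macrophages and 21509, 10601 and 18182 CPM in microglia-gated cells. Its log2 fold change was 1.41 ± 0.201 in libraries 1 and 2 (adjusted p = 0.0148) and 0.63 ± 0.554 with all 3 (adjusted p = 0.628). Spp1 stood at 1992, 1612 and 0 CPM against 25.7, 377 and 358 CPM, with adjusted p of 0.0408 and 0.545 in the 2 fits. Its levels in gated macrophages of libraries 1 and 2 came mostly from the few members with high Spp1 counts given above. Gpnmb stood at 869, 123 and 0 CPM (adjusted p of 0.0337 and 0.484).

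Against microglia, 5 class II loading genes were tested and 0 passed in libraries 1 and 2, where H2-DMa had an adjusted p of 0.0917 and H2-DMb1 of 0.0656. With all 3 libraries H2-DMa (log2 fold change 1.71 ± 0.389, adjusted p = 0.0195) and H2-DMb1 (2.11 ± 0.447, adjusted p = 0.0139) were higher and Lgmn was lower. In each library both H2-DM genes were higher in gated macrophages than in microglia-gated cells, H2-DMa at 334, 257 and 168 CPM in the latter. Ctss, at 5570, 5950 and 5044 CPM in microglia-gated cells, had a log2 fold change of -0.28 ± 0.255 (adjusted p = 0.665).

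Endothelial genes moved with this comparison. Cldn5 and Ly6c1 were higher in gated macrophages of libraries 1 and 2, 2 of 3 tested, where 2.28% of all genes were called higher. Library 3 had 0 Cldn5 UMIs. The summed level of the 7 endothelial genes was 43.0 to 998 CPM in gated macrophages and 25.7 to 126 CPM in microglia-gated cells, and 0 of the 7 were at 0 in the members. With the 18 members that had endothelial genes or neither Tyrobp nor Fcer1g left out, the fit of all 3 libraries called 111 of 989 tested genes. It called 123 of 1253 with all members. Mndal and Foxp1, called with all members, were no longer among the genes tested.

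**Figure D4:**
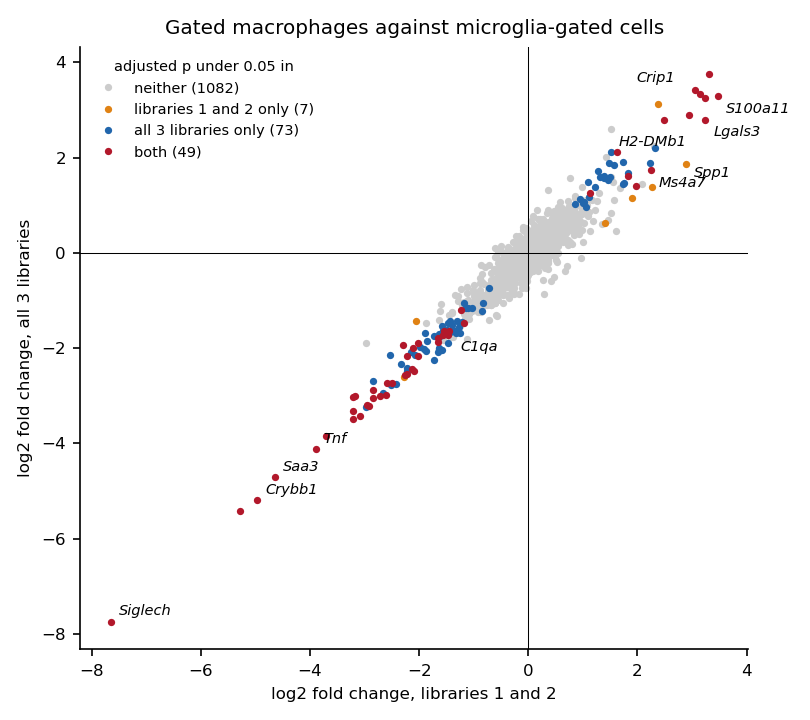
Each point is 1 of 1211 genes tested in both fits of gated macrophages against microglia-gated cells, with the log2 fold change from libraries 1 and 2 on the x axis and from all 3 libraries on the y axis. Colours show in which fit the adjusted p was under 0.05 (49 genes in both). The position of Siglech, which has 0 UMIs in members, is set by the fit and is no measured fold.

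The FLiCRE features were near background in gated macrophages. An UMI of mCherry was found in 5 members, 4.39% (exact Clopper-Pearson 95% interval 1.44 to 9.94%), of TEV in 5.26% and of tTA in 3.51%. In oligodendrocyte-gated cells the shares were 5.37%, 3.34% and 2.04%, and in kept cells above the neuronal limit 16.2%, 36.6% and 24.7%. The median depth was 1471.5 UMIs in members and 1808.5 in oligodendrocyte-gated cells. The 3 features were tested against the other non-neuronal cells and 0 passed in either fit.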

How the data were processed

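Single cells of 3 libraries of the mouse nucleus accumbens were sequenced with the 10x Genomics 3′ v2 kit, per the labels' description. The authors deposited whole UMI counts per feature and cell in 1 matrix of 28001 features (27998 Ensembl IDs and 3 construct features), made with Cell Ranger 3.0 on mm10, per the submitters' processing notes. The deposited barcode and feature lists hold names, with no other measurement. Whether libraries were equalised in depth is not given in the sources used here. Nothing says that the libraries came from separate animals, so p-values measure only the spread between libraries, which may be technical.

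Counts were summed per library and cell class. Sums were compared with edgeR 4.0.16 (TMM, filterByExpr, robust quasi-likelihood, library as block, adjusted p under 0.05), with DESeq2 1.42.0 as an alternative. The 2 sums of a pair come from the same library, which is the source of the block. The 15 gate genes stayed in library totals and out of the tests. An arm needed 10 cells in a library, which left library 3 out of the main fits. Standard errors are those of the log2 fold change. The procedure was tested on simulated data, where the 2-library fit against other non-neuronal cells made no call and the fit of all 3 libraries recovered most changes. Apart from the planted changes, the simulated arms and libraries shared the same gene profile, with a fixed dispersion. The real sums mix cell kinds in parts that differ by library, so the simulation cannot show how reliable their calls are. Oligodendrocyte-gated cells had at least 20 UMIs of the oligodendrocyte list. Doublets were scored with Scrublet (scanpy 1.11.5), and the highest 0.8% per 1000 cells of each library were removed as an alternative.

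Members and gene lists were chosen with earlier results of these data known. Named genes were the 12 largest positive and 8 largest negative changes among genes that passed, with the same direction in all 3 libraries and at least 200 CPM in the higher arm. Any list gene could be named too, and some are not reported here. Of 302 list entries, 5 were not in the features used. Genes named in descriptions of member sets (Ackr1, Wdfy4, Ifi205, Plbd1) were chosen after their values were seen.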

Additional observations from a re-analysis of the deposited data

How the results depend on the processing

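The directions of 197 gene comparisons stayed the same over 3474 alternative values, while calls did not. These were genes named by the rule and list genes that passed in at least 1 of the 2 fits, where tested in libraries 1 and 2. Directions of list genes that passed in neither fit were not checked. The alternatives used the same or overlapping counts, and no fit used library 3 alone. Stable directions thus follow in part from how the genes were chosen. Against the other non-neuronal cells the main fit called 0 genes. DESeq2 called 291 on the same sums. With all 3 libraries 872 were called, 522 with DESeq2, 874 with no replicate block, 1014 with RLE size factors, 603 with the package-default prior and 1113 without members that had endothelial genes or lacked Tyrobp and Fcer1g. Leaving out library 1 or 2 gave 0 to 197. Against microglia-gated cells the main fit called 72 genes. It called 29 with DESeq2, 0 with no low-count filter (509 at an unadjusted p under 0.05), 8 with no replicate block, 46 with an MHC sum of at least 3, 29 with at least 10, 0 with cells of at least 1000 UMIs, 46 with at most 10% mitochondrial UMIs and 0 after doublet removal. With all 3 libraries 123 of 1253 tested genes were called. The count was 118 with RLE size factors, 125 with the default prior and 72 with no replicate block. Without the members named above 111 of 989 tested genes were called, and 0 to 22 genes without library 1 or 2. Mean shares of gated macrophages over the libraries moved by less than 1 SD in every alternative that was run. With cells of at least 1000 UMIs the share of library 1 alone moved by more, to 2.58% of kept cells and 4.07% of non-neuronal cells, the latter above the 3.53% of library 2. Leaving a library out of the 2-library fits leaves 1 pair and no residual degrees of freedom, so no test was run there. The 7 members of library 3, with 23266 UMIs, limit every level given for it, and 3 counts over all members are worth 14.1 CPM.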
